A study of Mus musculus with 18 samples.

Results

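The 10 genes described here are named for their place in bone morphogenetic protein (BMP) and activin signaling and were followed through 18 RNA sequencing libraries from the mouse cochlea. They were taken by symbol, and all 10 of 10 were present among the 47729 genes of the files: the BMP ligand genes Bmp2, Bmp4 and Bmp7, the activin subunit gene Inhba, the antagonist gene Fst, the Id genes Id1, Id2 and Id3, and the inhibitory Smad genes Smad6 and Smad7. The libraries formed 9 groups of 2. Of these, 3 were cells sorted from cochlear sensory epithelium at postnatal day 2 and labelled Atoh1, Lgr5 or Sox2. The other 6 were primary cochlear organoids labelled LCP, which the sources used here do not spell out. They comprised unsorted LCP cultures at differentiation times D0, D2, D4 and D10 and sorted LCP cultures at D0 and D10. Each label states that a sample came from both ears of a single pup, for the cultures as well. The sources used here name neither the strain, nor the reporter alleles behind the sorts, nor the marker by which cultures were sorted. A protocol with tamoxifen, Sox2-CreER and an exon 3 β-catenin allele stands on every sample but matches no sample title, so no group is described by it.

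BMPs are secreted ligands that bind paired serine/threonine kinase receptors and act through Smad1, Smad5 and Smad9, while activins, dimers of inhibin beta subunits, act through Smad2 and Smad3. Id1, Id2 and Id3 are well known BMP targets whose proteins bind partners of basic helix-loop-helix factors such as ATOH1, the factor that hair cells need. Smad6 and Smad7 are induced by the pathways that they restrain, and follistatin, the product of Fst, binds activins and, more weakly, BMPs. In the developing cochlea Bmp4 is known as a gene of the non-sensory epithelium beside the outer hair cells, and Inhba and Fst are known for opposed gradients along the cochlear duct.

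Values are TPM, which correct for gene length and are scaled to a fixed total per library. They keep no read depth, so the depth of each library is unknown. All libraries had between 14381 and 16713 genes at 1 TPM or more, none of 6 housekeeping genes was at 0, and the correlation between replicates across genes ran from 0.903 to 0.945. In hair cell markers the summed TPM of 10 genes was 1572 to 2105 in the native Atoh1 sort, 649 to 1124 in the Lgr5 sort, 989 to 1153 in the Sox2 sort, 5.67 to 20.3 in sorted LCP D0 and 1077 to 1401 in sorted LCP D10. Between the native Atoh1 sort and the Lgr5 and Sox2 sorts 0 of these 10 were called. The 10 supporting cell markers summed to 1265 to 2063 TPM in the Atoh1 sort, 2066 to 4781 in the Lgr5 sort and 1083 to 2083 in the Sox2 sort, so by these sums the Sox2 sort did not stand above the Atoh1 sort, and 0 of 10 were called between those groups. The supporting cell gene Hes5 was at 314 and 79.1 TPM in the Atoh1 sort, and Oc90, a gene of other cochlear epithelium, at 289 and 1762 TPM in the Sox2 sort. The unsorted cultures' replicates carry different RNA extraction and sequencing dates. Within replicate 1, D10 also carries another sequencing date than D0, D2 and D4, so D10 against D0 crosses sequencing dates in that replicate. In replicate 2 the native Atoh1 sort carries another extraction date than the Lgr5 and Sox2 sorts. Sorted LCP and native libraries of the same replicate number differ in extraction date. In replicate 1 sorted and unsorted LCP differ in extraction date at D0 and D10, and in sequencing date at D0.

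Promoters are shown for the 3 genes whose opposite changes in sorted cultures are described further on: Smad6 and Inhba, which were lower at D10, and Id4, the fourth Id gene, which was higher. RefSeq (build GRCm38.p6) had an entry for 5 of the 10 genes in the promoter table used here, namely Bmp4, Id2, Id3, Smad6 and Inhba, and for Id4. The Id2 and Id3 windows overlap annotated exons by 161 and 250 bases and are not shown. Each window is the 250 bases before the RefSeq start, written 5′ to 3′ on the gene's strand: Smad6 at chr9:64022060-64022309 (minus strand), Inhba at chr13:16011601-16011850 (plus strand) and Id4 at chr13:48260866-48261115 (plus strand). Capitals mark matches to GGCGCC, which reads the same on both strands, and matches to GGCTCC, whose reverse complement is GGAGCC. Both are GC-rich letters that BMP-activated Smads are known to bind.

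Smad6: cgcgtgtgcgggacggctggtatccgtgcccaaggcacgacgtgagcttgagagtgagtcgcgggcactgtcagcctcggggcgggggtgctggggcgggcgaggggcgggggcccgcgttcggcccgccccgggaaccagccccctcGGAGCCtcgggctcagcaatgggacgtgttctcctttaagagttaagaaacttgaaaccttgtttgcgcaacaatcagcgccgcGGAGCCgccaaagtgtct

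Inhba: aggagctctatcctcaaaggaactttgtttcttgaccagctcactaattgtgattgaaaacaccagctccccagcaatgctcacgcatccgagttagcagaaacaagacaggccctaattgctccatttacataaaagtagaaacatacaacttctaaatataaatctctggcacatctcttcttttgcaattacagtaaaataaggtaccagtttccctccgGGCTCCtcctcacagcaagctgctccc

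Id4: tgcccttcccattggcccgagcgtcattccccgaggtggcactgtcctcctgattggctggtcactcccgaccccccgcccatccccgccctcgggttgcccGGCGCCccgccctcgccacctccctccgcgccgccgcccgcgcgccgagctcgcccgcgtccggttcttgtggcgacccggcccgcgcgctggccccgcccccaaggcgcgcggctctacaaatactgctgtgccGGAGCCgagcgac

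Read on both strands, GGCGCC was found at position -148 of Id4, counted from the start site, and in neither of the other windows. GGCTCC or its complement was found at -102 and -18 of Smad6, at -27 of Inhba and at -13 of Id4. The shorter Smad letters GTCT, or their reverse complement, were found at -4 of Smad6 and -145 of Inhba. No match overlapped another. Of 32851 mouse promoter windows of this length, 9.59% held GGCGCC, 26.0% held GGCTCC and 82.9% held GTCT, so a match describes the letters only. By base content the windows differed: 75.6% of Id4, 66.8% of Smad6 and 43.2% of Inhba were G or C.

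**Figure D1:**
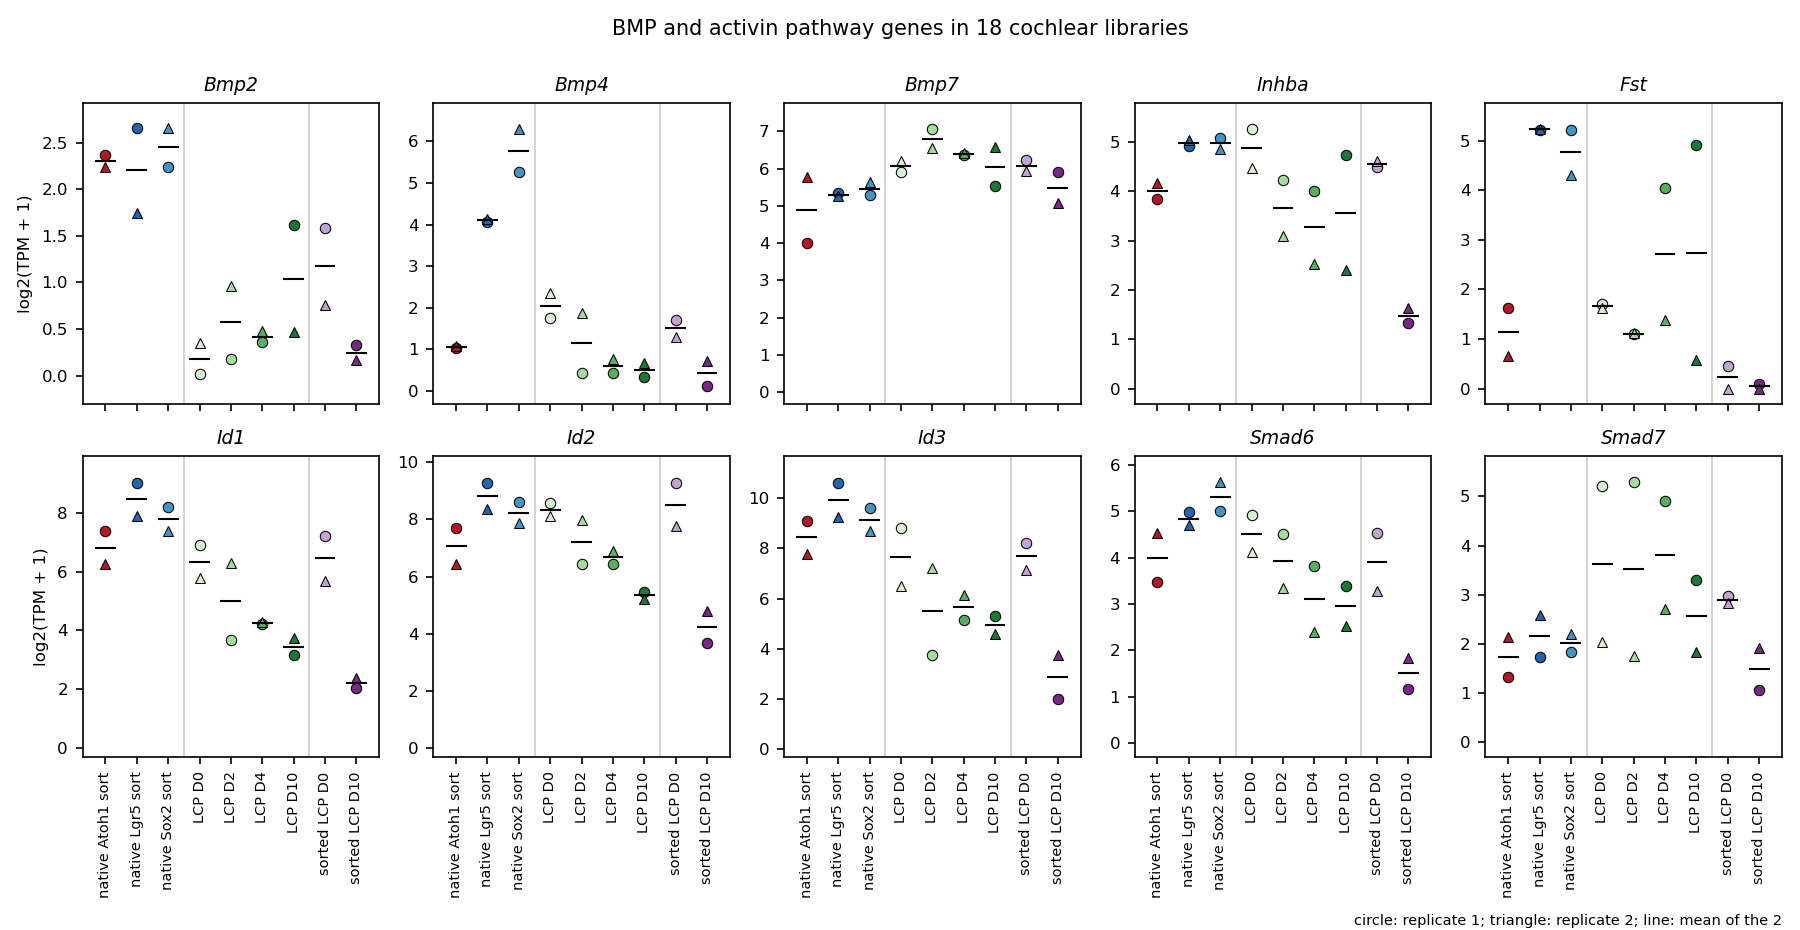
Each panel plots 1 gene as log2(TPM + 1) in the 9 groups, with circles for replicate 1, triangles for replicate 2 and a line at the mean of the 2. Bmp4 was at 15.7 to 77.1 TPM in the native Lgr5 and Sox2 sorts and at 4.12 TPM or less elsewhere, while both sorted LCP D10 libraries held the lowest Id1 and Inhba values of the 18.

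Among the 4 ligand genes, Bmp4 was higher in every library of the native Lgr5 and Sox2 sorts than in any other library. The gene lies at chr14:46383520-46390669 on the minus strand (GENCODE M21, build GRCm38). It stood at 1.05 and 1.13 TPM in the 2 libraries of the native Atoh1 sort, at 15.7 and 16.6 in the Lgr5 sort, and the Sox2 sort held 37.2 and 77.1 TPM. The groups did not overlap, and the Sox2 sort was the highest. Mean TPM was 14.8-fold lower in the Atoh1 sort than in the Lgr5 sort and 52.4-fold lower than in the Sox2 sort. On the log2(TPM + 1) scale, which understates changes of low genes, the Atoh1 sort was lower than the mean of the other sorts by a difference of -3.87 (SE 0.42, limma adjusted p = 0.00108). Bmp4 passed against the Lgr5 sort alone (-3.04, limma adjusted p = 0.0251; 0.308% of all genes called) and the Sox2 sort alone (-4.71, limma adjusted p = 0.000558; 1.08% of all genes called), choices added after seeing the data. It was the only one of the 10 genes called in this comparison, where 0.821% of the 20463 genes tested were called and 0.503% were called lower (limma, adjusted p under 0.05).

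Between the Lgr5 and Sox2 sorts the Bmp4 difference did not pass (Lgr5 minus Sox2 -1.67, SE 0.49, limma adjusted p = 0.306), and 0 of the 10 genes did, against 0.557% of all genes. In bulk libraries fewer cells that express a gene and less RNA per cell cannot be told apart. Gata2, a transcription factor gene listed here both as a BMP target and as a gene of other cochlear epithelium, was lower in the Atoh1 sort as well, at 8.72 and 5.78 TPM against 52.1 and 103 in the Lgr5 sort and, for the Sox2 sort, 88.5 and 116 (-3.43, limma adjusted p = 0.000461). Without Bmp4, the 8 genes of that epithelial list, Gata2 among them, summed to 70.6 to 215 TPM in the Atoh1 sort. The sums were 238 to 676 in the Lgr5 sort and 627 to 2088 in the Sox2 sort. In both Atoh1 libraries 0 of the 8 was at 0 and 3 were under 1 TPM. Glial markers (7 genes) summed to 44.1 to 58.3, 117 to 137 and 465 to 965 TPM in the same order. The part of these cells in the Bmp4 difference was not tested. Gm15217 and Gm15222 overlap the span of Bmp4 on the opposite strand. The library kits do not mark strand, so reads from any exon bases they share cannot be told apart.

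Bmp4 was already low in the cultures at D0, the earliest time sampled. Sorted LCP D0 held 2.28 and 1.46 TPM, below both libraries of the native Lgr5 sort (-2.59, SE 0.49, limma adjusted p = 0.00463). Between these groups 8 of 10 hair cell markers were called lower, with a median difference of -5.22. So were 3 of 10 supporting cell and 4 of 9 neuron markers tested, with 0 called higher on any of these lists. Of 8 mesenchyme markers tested, 2 were lower and 1 higher. Over all genes 11% were called and 7.11% called lower. The part of these cells in the lower Bmp4 was not tested. Unsorted cultures held 2.37 and 4.12 TPM at D0, 0.361 and 2.68 at D2, 0.344 and 0.696 at D4 and 0.263 and 0.609 at D10. Both D10 libraries were under both D0 libraries, but the difference missed the threshold (-1.54, limma adjusted p = 0.0824). It passed with the replicate number as a block (limma adjusted p = 0.0351), which in the unsorted cultures marks a shared extraction date. With that block 767 of all genes were called higher and 1242 lower, against 624 and 888 without it.

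Bmp7 was the most even of the 4 ligand genes among the 10 and ranged from 14.99 to 131 TPM over all 18 libraries. Its group means ran from 34.2 ± 27.2 TPM (SD, n = 2) in the native Atoh1 sort to 112 ± 27.4 in LCP D2. Neighboring groups overlapped except between LCP D2 and D4 and between LCP D0 and sorted LCP D10. It passed in none of the 11 comparisons, and for sorted LCP D10 against D0 the difference was -0.60 with a 95% interval from -1.70 to 0.51.

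Bmp2 was low throughout, between 0.0140 and 5.32 TPM, with 8 of 18 libraries at 1 TPM or more. The native Atoh1, Lgr5 and Sox2 sorts were alike within their spread, at 3.95 ± 0.30, 3.83 ± 2.07 and 4.52 ± 1.13 TPM (SD, n = 2). All 6 native libraries were above all 12 cultured ones. Sorted LCP D10, at 0.256 and 0.122 TPM, was below the native Atoh1 sort, at 4.17 and 3.74 TPM (-2.06, SE 0.45, limma adjusted p = 0.0133). That call was lost when any 1 of the 4 libraries was left out.

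The Id genes were the most abundant of the 10 in native cells and had their highest library in the native Lgr5 sort and their lowest in sorted LCP D10. They lie at chr2:152736251-152737410 (Id1, plus strand), chr12:25093799-25097140 (Id2, minus strand) and chr4:136143497-136145755 (Id3, plus strand). In the Lgr5 sort Id1 was at 517 and 239 TPM, while the Sox2 sort held 295 and 165 and the Atoh1 sort 166 and 75.5. Id3 reached 1543 and 608 TPM in the Lgr5 sort against 764 and 413 in the Sox2 sort and 544 and 217 in the Atoh1 sort, and Id2 was at 619 and 327, 392 and 232, and 206 and 86.7 in the same order. In each sort replicate 1 was the higher library for Id1, Id2 and Id3. No difference between the native sorts was called for these genes. For Atoh1 against the mean of the other sorts Id1 was at -1.31 (unadjusted 95% interval -2.80 to 0.19), Id2 at -1.46 (-2.68 to -0.23) and Id3 at -1.10 (-3.16 to 0.96), with limma adjusted p of 0.490, 0.319 and 0.726. For Id2 both Atoh1 libraries lay under every Lgr5 and Sox2 library, while for Id1 and Id3 they overlapped the Sox2 sort.

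From D0 to D10 the Id genes fell in sorted cultures. Id1 was at 148 and 50.8 TPM in sorted LCP D0 and at 3.15 and 4.17 in sorted LCP D10. Id2 was at 613 and 216 TPM and then at 11.8 and 27.1, and Id3 at 296 and 141 TPM and then at 2.99 and 12.6. For all 3 genes both D10 libraries lay far under both D0 libraries, by 27.2-fold in mean TPM for Id1, 21.3-fold for Id2 and 28.0-fold for Id3. The differences were -4.25 for Id1 (SE 0.79, limma adjusted p = 0.00273), -4.27 for Id2 (SE 0.65, limma adjusted p = 0.000802) and -4.80 for Id3 (SE 1.09, limma adjusted p = 0.00789).

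In all, 5 of the 10 genes fell in this comparison, Id1, Id2, Id3, Inhba and Smad6, and 0 rose, beside 24% of all genes called in either direction and 10.7% called lower. The median log2 difference was -1.91 over the 10 genes and 0.02 over all genes tested. Without replicate 1 of sorted LCP D0 only Id1, Id2 and Inhba passed, and without replicate 1 of sorted LCP D10 only Id1 and Id2. Calls over all genes fell in both of those fits too. Other lists moved in the same libraries: 9 mesenchyme markers summed to 660 to 1619 TPM in sorted LCP D0 and 47.5 to 62.4 in sorted LCP D10, with 6 and then 7 of them under 1 TPM in both libraries, 1 at 0 in each group, and 3 of 8 tested called lower. Endothelial markers (6 genes) summed to 39.4 to 43.8 TPM and then 4.63 to 6.05, with 2 of 4 tested called lower, and glial markers (7 genes) to 111 to 124 TPM and then 24.3 to 53.7, with 2 of 7 called lower. The 10 hair cell markers all rose. The part of these cells in the Id values was not tested.

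**Figure D2:**
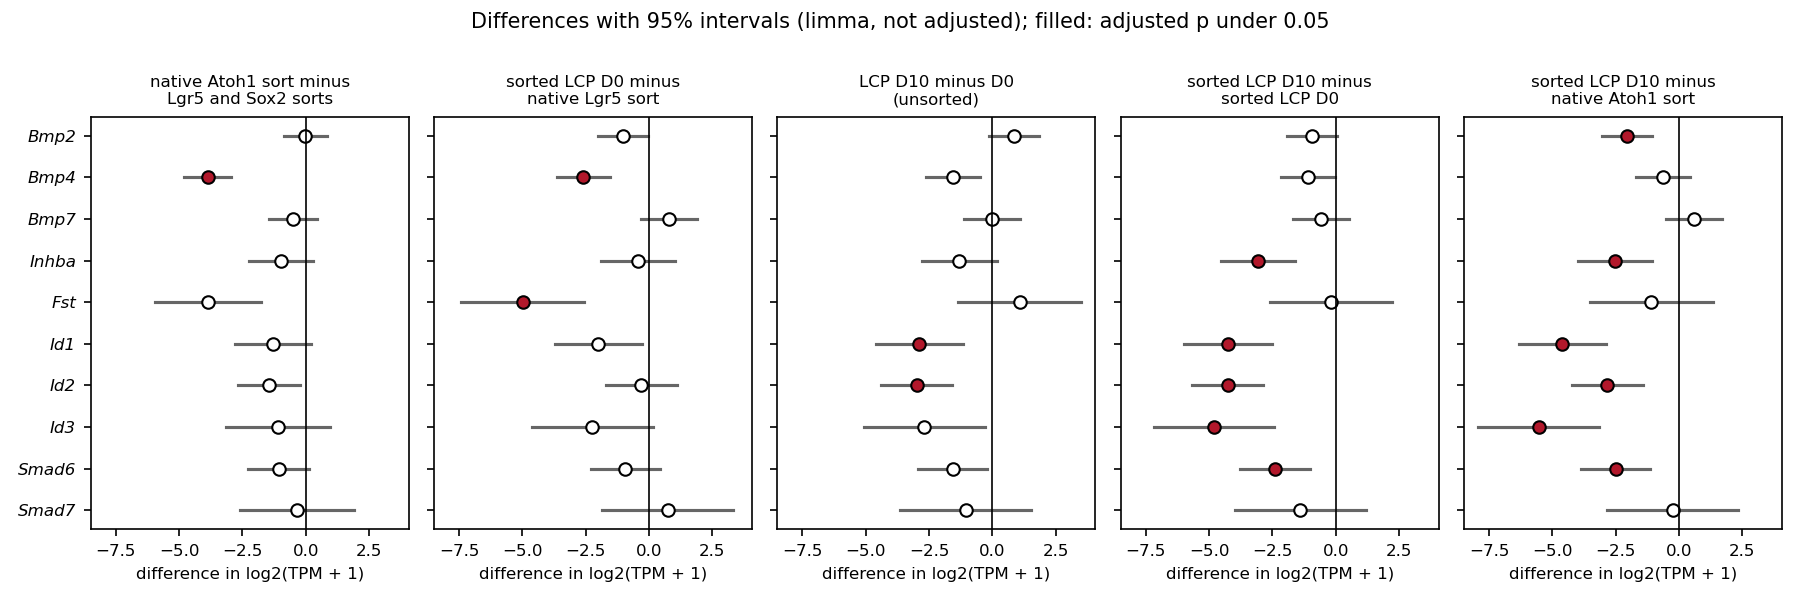
Points give the difference in log2(TPM + 1) between the groups named above each panel and bars the unadjusted 95% interval from limma, with filled points where the adjusted p was under 0.05. Id1, Id2, Id3, Inhba and Smad6 are filled for sorted LCP D10 against D0 and again against the native Atoh1 sort, whereas only Id1 and Id2 are filled for the unsorted cultures.

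Unsorted cultures had lower Id values at D10 as well. Id1 was at 119 and 53.7 TPM at D0, 11.8 and 78.1 at D2, 17.8 and 18.4 at D4 and 7.97 and 12.4 at D10. Id2 was at 380.2 and 275, 86.0 and 254, 87.0 and 119, and 43.3 and 36.3 TPM at the same times. On the log2(TPM + 1) scale the replicates of all 3 Id genes were furthest apart at D2, where replicate 2 was the higher, while at D0 replicate 1 was. Id1 (-2.89, SE 0.79, limma adjusted p = 0.0472) and Id2 (-3.00, SE 0.65, limma adjusted p = 0.0160) fell from D0 to D10, 2 of the 10 genes, beside 7.39% of all genes called and 4.34% called lower. Id3, at 443 and 88.2 TPM at D0 and 38.5 and 23.3 at D10, did not pass (-2.69, limma adjusted p = 0.182). Between the same groups mesenchyme markers summed to 1015 to 1540 TPM at D0 and 448 to 510 at D10, with 1 of 8 tested called lower. Endothelial markers summed to 53.9 to 70.8 and then 5.69 to 18.04 TPM, with 2 of 4 called lower, and 9 of 10 hair cell markers were called higher. Their part in the Id values was not tested.

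The unsorted calls depended on single libraries. No member passed with either D0 library or replicate 2 of D10 left out, and calls over all genes fell in each of those fits too. Id2 and Inhba passed without replicate 1 of D10. Id1 also missed the threshold with no filter on low values, with median-of-ratios scaling, without the variance trend and when only these 4 libraries were fitted. At D2 and D4 against D0, 0 of the 10 genes passed, beside 0.0489% and 3.39% of all genes. The change from D0 to D10 was not shown to differ between sorted and unsorted cultures for any of the 10 genes (0 called, 0.205% of all genes called): the difference between the 2 changes was -1.36 for Id1 (95% interval -3.80 to 1.08), -1.27 for Id2 (-3.27 to 0.72) and -2.11 for Id3 (-5.47 to 1.24). Directly compared at D0, sorted and unsorted cultures gave 0 calls among the 10, beside 0.0782% of all genes.

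Id4 did not follow the other Id genes. It encodes a protein of the same family and was taken from the list of other pathway targets (chr13:48261228-48266026, plus strand). Id4 was at 39.3 and 15.3 TPM in sorted LCP D0 and at 275 and 172 in sorted LCP D10, with no overlap, a rise of 3.09 on the log2 scale (SE 0.81, limma adjusted p = 0.0165). In unsorted cultures it was at 57.1 and 15.3 TPM at D0 and at 66.6 and 226 at D10, and the difference did not pass (2.01, limma adjusted p = 0.181). The native sorts held it at a near even 128 to 183 TPM. The sorted call was lost without replicate 1 of D10 or replicate 2 of D0. A330033J07Rik and Gm49291 overlap the span of Id4 on the opposite strand, so reads from any exon bases they share cannot be told apart.

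As a share of the summed TPM of Id1 to Id4, Id4 was 3.58% and 3.62% of the sorted LCP D0 libraries and 93.9% and 79.6% of the sorted LCP D10 libraries. The sum itself went from 1096 and 423 TPM to 293 and 216 TPM. In unsorted cultures the Id4 share was 5.71% and 3.54% at D0, 5.53% and 5.15% at D2, 20.4% and 36.0% at D4 and 42.6% and 75.9% at D10. Every D4 library was above every D0 and D2 library, and every D10 library above every D4 library. The native Atoh1 sort had 13.1% and 32.6%, the Lgr5 sort 4.99% and 10.3% and the Sox2 sort 8.10% and 15.2%, so no native library reached the sorted LCP D10 range. Id3 made up the largest share in all 6 native libraries, between 38.6% and 54.7%, and Id2 in both sorted LCP D0 libraries, 55.9% and 51.1%.

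**Figure D3:**
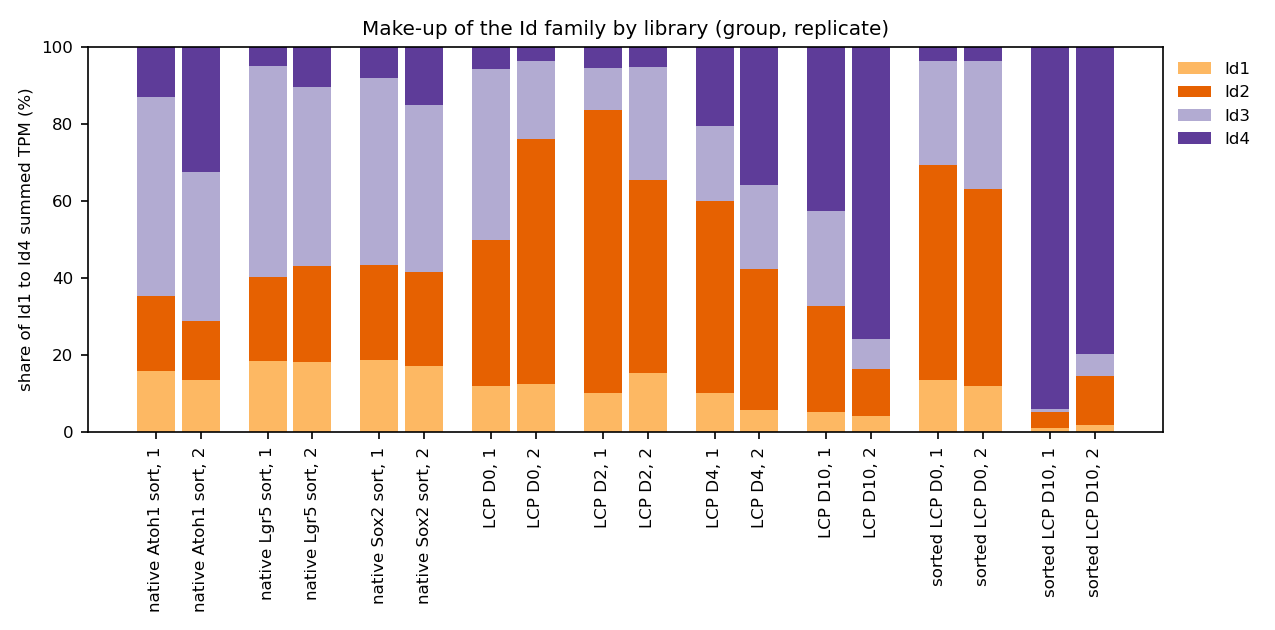
Stacked bars give the share of Id1, Id2, Id3 and Id4 in their summed TPM (%) for each library, named by group and replicate. Id4 fills 3.58% and 3.62% of the bars of sorted LCP D0 and 93.9% and 79.6% of those of sorted LCP D10.

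Sorted LCP D10 was also compared with the native Atoh1 sort, which asks how cultured cells rich in hair cell transcripts stand against native ones. Id1 (-4.61, SE 0.79, limma adjusted p = 0.00341), Id2 (-2.83, SE 0.65, limma adjusted p = 0.0155) and Id3 (-5.55, SE 1.09, limma adjusted p = 0.00715) were lower in the cultured cells, which held 33.0-fold, 7.52-fold and 48.7-fold less in mean TPM. In all 3 genes the groups did not overlap. With Bmp2, Inhba and Smad6, 6 of the 10 genes were called lower and 0 higher, beside 11.8% of all genes called and 7.34% called lower. The median over the 10 genes was -2.28, and over all genes tested -0.11. Only Id1 was called under every alternative tried. Id1 and Smad6 passed without replicate 1 of the Atoh1 sort and Id1 alone without replicate 1 of sorted LCP D10. Without replicate 2 of either group Id1, Id2 and Id3 passed. Calls over all genes fell in each of these fits too.

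Markers of other cells moved with this comparison. The supporting cell genes Hes5, at 314 and 79.1 TPM, and Fgfr3, at 68.1 and 58.6 TPM, were present in the native Atoh1 sort and at 0.219 and 0.255 and at 0.359 and 0.474 TPM in sorted LCP D10. Of 10 supporting cell markers, 5 were called lower in the cultured cells and 1, S100a1, higher, with a median difference of -2.00. Their sum was 1265 to 2063 TPM in the native sort and 6455 to 7534 in the cultured cells, where S100a1 alone was at 6313 and 7335 TPM. The other 9 summed to 469 to 1028 TPM in the native sort and 142 to 199 TPM in the cultured cells, and 4 of the 10 were under 1 TPM in both cultured libraries. Erythroid markers (5 genes) summed to 193 to 281 TPM in the native sort and 0.352 to 0.712 in sorted LCP D10, where 3 of 5 were at 0 in both libraries. Mesenchyme markers summed to 149 to 269 TPM in the native sort. The part of these cells in the lower Id values was not tested.

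The activin side changed in composition. Inhba encodes the beta A subunit that forms activin A, and Inha the alpha subunit that pairs with beta subunits to give inhibins. Inhba (chr13:16011851-16031621, plus strand) was at 21.6 and 23.4 TPM in sorted LCP D0 and 1.51 and 2.10 in sorted LCP D10, a fall of 12.4-fold in mean TPM (-3.07, SE 0.67, limma adjusted p = 0.00643). Inha was at 6.25 and 3.38 TPM and then at 48.7 and 31.9 (2.84, SE 0.62, limma adjusted p = 0.00656). The groups did not overlap for either gene. Inhba thus went from 77.6% and 87.4% of the summed TPM of the pair to 3.02% and 6.19%. Both calls were lost without replicate 1 of sorted LCP D10. Gm48444 and B230303A05Rik overlap the span of Inhba on the opposite strand, so reads from any exon bases they share cannot be told apart.

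Unsorted cultures split by replicate for the same genes. Inhba was at 37.3 and 21.3 TPM at D0, 17.8 and 7.54 at D2, 15.1 and 4.80 at D4 and 25.5 and 4.29 at D10, with replicate 1 the higher at each time. At D10 Inhba made up 92.0% of the pair in replicate 1 and 21.2% in replicate 2, and Inha was at 2.23 and 16.0 TPM. Sorted LCP D10 against unsorted LCP D10 gave 0 calls among the 10 genes, beside 6.22% of all genes (877 higher and 396 lower). Inhba (-2.08, limma adjusted p = 0.0858) passed with the replicate block (limma adjusted p = 0.0455) and with sequencing date as a term (limma adjusted p = 0.0395). Calls over all genes rose in both settings, to 1284 higher and 1150 lower with the block and 1345 and 1329 with the date. Without replicate 2 of unsorted D10, Fst and Inhba passed, and calls over all genes rose there too.

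In native cells Inhba was at 29.3 and 31.9 TPM (Lgr5 sort), 32.8 and 28.0 TPM (Sox2 sort) and 13.3 and 16.9 TPM (Atoh1 sort). Both Atoh1 libraries were under all 4 libraries of the Lgr5 and Sox2 sorts, with a difference that did not pass (-0.98, limma adjusted p = 0.563). Sorted LCP D10 was below the Atoh1 sort (-2.52, SE 0.67, limma adjusted p = 0.0316), a call lost when any 1 of the 4 libraries was left out.

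Fst (chr13:114452290-114458951, minus strand), whose product holds activin away from its receptors, was at 36.4 and 36.6 TPM in the native Lgr5 sort, 36.3 and 18.8 in the Sox2 sort and 2.10 and 0.571 in the Atoh1 sort. The Atoh1 libraries lay under all 4 others, but the difference missed the threshold (-3.85, SE 0.96, limma adjusted p = 0.0996). The SE comes from 1 spread per gene over all groups, and in unsorted cultures the Fst replicates stood far apart, at 15.5 and 1.62 TPM at D4 and 28.9 and 0.502 at D10. Sorted LCP D0, at 0.382 TPM and listed at 0, was below the native Lgr5 sort (-5.00, SE 1.11, limma adjusted p = 0.0126). Fst and Bmp4 were the 2 of 10 genes called in that comparison, both lower, beside 11% of all genes called and 7.11% called lower. Cell type markers differed between these groups as given for Bmp4, and their part in the lower Fst was not tested. Bmp4 was called under each alternative tried, and Fst was lost without either Lgr5 library or without replicate 2 of sorted LCP D0. Sorted LCP D10 held 0.0701 TPM and a value listed at 0. The antisense gene Gm47040 overlaps Fst.

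**Figure D4:**
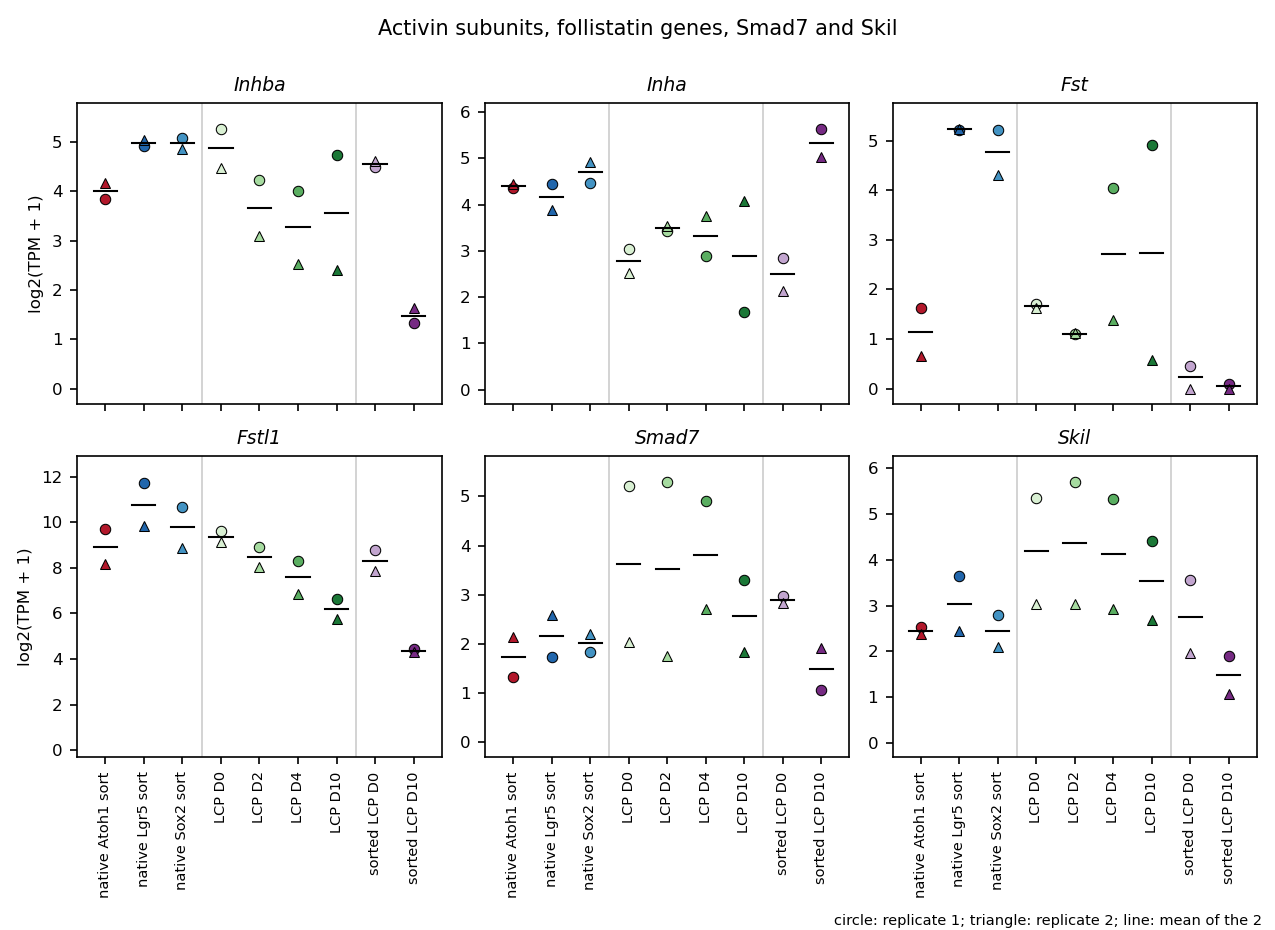
The panels plot log2(TPM + 1) of Inhba, Inha, Fst, Fstl1, Smad7 and Skil in the 9 groups, with circles for replicate 1, triangles for replicate 2 and a line at the mean of the 2. Inhba is at 1.51 and 2.10 TPM and Inha at 48.7 and 31.9 TPM in sorted LCP D10, and Smad7 and Skil are higher in replicate 1 of all 4 unsorted groups.

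Of the inhibitory Smads, Smad6, which restrains BMP receptors in particular, was at 22.1 and 8.77 TPM in sorted LCP D0 and 1.26 and 2.56 in sorted LCP D10 (-2.40, SE 0.63, limma adjusted p = 0.0160). The groups did not overlap, and the mean fell 8.07-fold. It was also lower in sorted LCP D10 than in the native Atoh1 sort, at 10.1 and 22.2 TPM (-2.50, SE 0.63, limma adjusted p = 0.0241). The first call was lost without replicate 1 of either group, and the second without either sorted LCP D10 library or replicate 2 of the Atoh1 sort. The native Sox2 sort was the highest group at 31.1 and 48.4 TPM, followed by the Lgr5 sort at 30.7 and 25.1, and these neighbors did not overlap. Unsorted cultures went from 29.3 and 16.4 TPM at D0 through 22.0 and 9.24 at D2 and 13.1 and 4.23 at D4 to 9.47 and 4.73 at D10, replicate 1 being the higher each time, and D10 against D0 did not pass (-1.57, limma adjusted p = 0.176).

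Smad7, which restrains both the BMP and the activin or TGF-beta branches, passed in none of the 11 comparisons. It was at 36.0 and 3.12 TPM in unsorted LCP D0, 38.0 and 2.38 at D2, 28.9 and 5.55 at D4 and 8.86 and 2.56 at D10. Replicate 1 of D0, D2 and D4 stood above all other libraries, which were at 8.86 TPM or less. Skil, a TGF-beta and activin target that feeds back on Smad2 and Smad3, was split in the same way, at 39.5 and 7.19 TPM at D0, 50.5 and 7.23 at D2, 38.9 and 6.62 at D4 and 20.1 and 5.47 at D10. Those 3 Smad7 libraries share both an extraction date and a sequencing date that no replicate 2 library has. Whether the dates or the cultures account for the split cannot be told apart.

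The remaining pathway genes, 64 on 4 lists of which 45 passed the filter on low values, are given by their counts. In sorted LCP D10 against D0, 3 of 45 were higher and 5 lower, beside 24% of all genes called and 10.7% called lower, with a median of -0.32. Besides Id4 and Inha, the higher gene was Smad3, which carries activin and TGF-beta signals, at 3.70 and 1.99 TPM and then 13.9 and 12.4 (1.92, limma adjusted p = 0.0108). Lower were Fstl1, a secreted follistatin-like protein, at 437 and 233 TPM and then 20.4 and 18.6 (-3.96, limma adjusted p = 0.00370), Gata2 (-3.38, limma adjusted p = 0.000179), Tgfb1 (-1.68), the decoy receptor gene Bambi (-1.63) and the homeobox gene Msx1 (-1.21). Fstl1 and Gata2 held under every alternative run, and the other 6 calls were each lost without replicate 1 of sorted LCP D10. Tgfb2 was the most abundant of the other ligands, between 27.5 and 213 TPM in the 18 libraries. Among receptors and signaling Smads, 1 of 15 tested was higher, Smad3, and 0 lower. The most abundant of that list was Smad4, the partner shared by both branches, between 30.7 and 124 TPM.

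Across the unsorted cultures 1 of 45 genes was higher at D10 than D0 and 4 were lower, beside 7.39% of all genes called and 4.34% called lower. The higher gene was Nbl1, a secreted BMP antagonist, with a mean of 5.52 TPM at D0 and 50.0 at D10 (2.91, limma adjusted p = 0.0109). Gata2 (-2.67, limma adjusted p = 0.00192), Fstl1, Tgfb1 and Msx1 were lower. At D4 against D0 the counts were again 1 and 4, beside 3.39% of all genes called, with Nbl1 higher (2.69, limma adjusted p = 0.0262) and Gata2, Tgfb1, Msx1 and the activin-binding gene Fstl3 lower. Gata2 was lost at both times only when the libraries compared were fitted alone, and the other 4 genes at each time were lost with either D0 library left out and in 4 to 7 alternatives in all. In the sorted cultures at D10 Nbl1 was at a mean of 5.48 TPM, lower than in the unsorted ones (-2.92, limma adjusted p = 0.0172). There Twsg1, a BMP-binding modulator, and Tgfb2 were lower too and Inha higher (2.45, limma adjusted p = 0.0405), beside 6.22% of all genes called. All 4 calls were lost without replicate 1 of either group or replicate 2 of sorted LCP D10.

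Against the native Atoh1 sort, 2 of 45 genes were higher in sorted LCP D10 and 7 lower, beside 11.8% of all genes called and 7.34% called lower. Higher were Smad3 (2.61, limma adjusted p = 0.00417) and the type I receptor gene Acvr1 (1.54, limma adjusted p = 0.0170). Bmpr1b, another type I receptor gene, was lower (-1.34, limma adjusted p = 0.0254), as were the ligand gene Bmp3 and the antagonist genes Fstl1, Chrdl1 and Sostdc1 and the transcription factor genes Gata2 and Gata3. Acvr1, Bmpr1b, Chrdl1 and Sostdc1 were lost without either sorted LCP D10 library or replicate 2 of the Atoh1 sort, and the other 5 held under every alternative run. Sorted LCP D0 against the native Lgr5 sort gave 1 of 45 higher and 6 lower, beside 11% of all genes called. The higher gene was Tgfb1 (1.77, limma adjusted p = 0.0286), lost in 5 of 12 alternatives, either Lgr5 library left out among them. Lower were Bmper, a BMP-binding antagonist (-2.27, limma adjusted p = 0.00224), Gata2, Gata3, Acvr2b, Bmp3 and Sostdc1. There Gata2 held in all 12 alternatives, and Bmper was lost only when the libraries compared were fitted alone. Gata3, Acvr2b, Bmp3 and Sostdc1 were lost in 2, 4, 4 and 5 alternatives. Bmper was also lower in the native Atoh1 sort than in the Lgr5 and Sox2 sorts (-2.41, limma adjusted p = 0.00615), where with Gata2 it made 2 of 45 lower and 0 higher, beside 0.821% of all genes called. The native Lgr5 and Sox2 sorts differed in 1 of 45, beside 0.557% of all genes called. This was Sostdc1, a BMP and Wnt antagonist gene (-2.79, limma adjusted p = 0.0397), a call lost in 9 of 12 alternatives, among them the smaller pseudocount, both other filters, median-of-ratios scaling, sequencing date as a term and either Sox2 library left out. The Bmper call in the native Atoh1 comparison was lost against the Lgr5 sort alone, without replicate 2 of the Atoh1 sort and when only the libraries compared were fitted.

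Over the 18 libraries the members kept company in a few groups, given here as Pearson correlations of log2(TPM + 1), without a test because libraries of a group, and of an extraction date, share their source. Id1 and Id3 had r = 0.973, Id1 and Id2 0.914 and Inhba and Smad6 0.906. The same pairs within replicate 1 (9 libraries) had 0.975, 0.941 and 0.927, and within replicate 2 0.978, 0.857 and 0.885. Smad7 was not close to any Id gene, with r = -0.13 to Id1, 0.10 to Id2 and -0.12 to Id3.

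Beyond the 10 genes, the gene most like Id1 was Ackr3 (r = 0.947), which also led for Id3 (0.920), and Ankrd13d was among the 3 most like both. Itm2a was most like Id2 (0.938), Adpgk most like Inhba (0.949) and Arrb2 most like Smad6 (0.948), with Lrfn4 among the 3 most like both Inhba (0.935) and Smad6 (0.907). Fst was nearest Acer3 (0.874), Bmp2 nearest Cox18 (0.917) and Bmp7 nearest Cd2ap (0.790), the lowest of these values. For Smad7 the nearest gene, Tle3, had r = 0.929 over 18 libraries, 0.978 in replicate 1 and -0.20 in replicate 2, so that likeness rests on the replicate 1 libraries.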

How the data were processed

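The deposited files give 1 TPM value per gene and library, scaled by the authors to a fixed total. STAR, Salmon, FastQC, DESeq2 and the build mm10 appear per the submitters' processing notes, which give no version and no role for them. Per the labels' protocols, cDNA was made from 2.5 ng of RNA with a SMARTer V4 kit and sequenced as single-end 75 bp reads, so strand is not kept. TPM keeps no depth, and a rise in abundant genes lowers the rest. No count model was used.

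Groups and replicate numbers came from sample titles. Log2(TPM + 1) was used, and the 20463 genes that reached 1 TPM in 2 or more libraries, all 10 members among them, were tested with limma 3.58.1 (R 4.3.3) in 1 fit of 18 libraries with a variance trend, two-sided, with Benjamini-Hochberg adjustment over all genes tested per comparison and a threshold of 0.05. The fit has 9 residual degrees of freedom. All groups share 1 spread, so genes that vary between culture replicates have a wide SE everywhere. Of 10 members, 7 were at 1 TPM or more in all 18 libraries, and Bmp2, Bmp4 and Fst in 8, 11 and 12. P-values measure the spread between these samples only. Tables and figures used Python 3.11.15, pandas 2.3.3, numpy 2.4.6 and matplotlib 3.10.9. On simulated data for LCP D10 against D0, the test found 44% of 100 genes given a log2 change of 2, 12% of 100 given a change of 1, and called 1 of 20263 unchanged genes. For the native Atoh1 comparison and sorted LCP D10 against D0 it found 61% and 51%, then 13% and 6%, with 5 false calls each. Changed genes were drawn from higher expressed genes only, so the rates do not cover low genes such as Bmp2, Bmp4 and Fst. They were also fewer than the 1512 genes called in the real LCP D10 against D0.

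The members and lists were chosen with earlier results of these data known. Named are all members, the pathway genes past the threshold (up to the 3 largest differences per list and comparison, and the most abundant of a list), and for each member the 3 genes with the highest correlation whose highest group mean was at least 10 TPM. The genes most like Bmp4 are not reported here. Skil and the Id4 and Inhba shares were singled out after their values were seen. Coordinates and overlapping genes are from GENCODE M21 (GRCm38). Overlaps between genes were taken from gene starts and ends, and whether exons overlap was not examined. Replicate numbers mark a shared extraction date within the unsorted cultures, within the sorted cultures and between the Lgr5 and Sox2 sorts, per the labels. Deviations of same-numbered samples from their group means correlated at 0.21 to 0.48 between unsorted groups, 0.14 between sorted groups and 0.14 between those sorts. Several replicate 1 extraction dates are later than the sequencing date given.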

Additional observations from a re-analysis of the deposited data

How the results depend on the processing

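Alternatives were a pseudocount of 0.1 TPM, no filter, a filter of 5 TPM, median-of-ratios scaling, the replicate block, sequencing date, limma without trend, a fit of only the libraries compared, and each library left out. For the count of the 10 genes past the threshold, LCP D10 against D0 gave 2, and 1 with no filter, with median-of-ratios scaling, without trend and with only the libraries compared. Leaving out a library gave 0 to 2 there, 2 to 5 for sorted LCP D10 against D0, 0 to 2 for sorted against unsorted LCP D10, 1 to 3 for sorted LCP D10 against the native Atoh1 sort and 1 to 2 for sorted LCP D0 against the native Lgr5 sort. Sorted against unsorted LCP D10 gave 1 with the replicate block and 1 with sequencing date as a term. The block moved LCP D10 against D0 from 2 to 3 (adding Bmp4) and, apart from these 2 comparisons, the block changed no call of the 10 genes. With 1 library left in a group, its spread is taken from the other groups. Calls over all genes moved in those fits as well, so the counts of the 10 genes there do not stand apart from them. For each comparison listed with a library left out, calls over all genes fell. The exception was sorted against unsorted LCP D10 without replicate 2 of unsorted LCP D10, where they rose. Of 57 single-gene calls, members and pathway genes together, 13 held in every alternative run and 44 were lost in at least 1. No call reversed. Scaling moved the split of all calls to 780 higher and 735 lower (624 and 888 in TPM) for LCP D10 against D0, to 1149 and 1233 (922 and 1502) for sorted LCP D10 against the native Atoh1 sort and to 1039 and 726 (877 and 396) for sorted against unsorted LCP D10. On the TPM scale the median gene stood at -0.11 in the second of these, -0.12 between sorted and unsorted LCP D0 and 0.18 for the difference between the 2 changes. Without depth, counting error is unknown.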
